A study of Mus musculus with 12 samples.

Results

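Ribosome-bound RNA of SF1 cells was compared between mice carrying dominant-negative AMPK and control mice. The comparison used the 6 pulled-down libraries, called outputs, of the 12 libraries in the series, chosen by their titles: 3 of the DN group and 3 of the CTRL group. The other 6 libraries, called inputs, come from the same pools before the pull-down and served to weigh each gene. Every pool held the dissected ventromedial nucleus (VMN) tissue of 6 mice on regular chow, taken after an overnight fast. All mice received an adeno-associated virus for GFP-L10, a ribosomal protein fused to green fluorescent protein. DN mice received a further adeno-associated virus, for dominant-negative AMPK, in the VMN. In the labels, the protocol of CTRL samples mentions that virus too, but their characteristics say that the mutant was absent, and the characteristics were followed. No control virus is named for CTRL mice, so an effect of the construct and one of carrying any added virus cannot be told apart. The sources used here give no strain, sex or age, nor the means that restricted GFP-L10 to SF1 cells.

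AMPK is a kinase of a catalytic alpha, a scaffolding beta and a nucleotide-binding gamma subunit, and it is switched on when cellular energy falls. A dominant-negative alpha subunit takes the place of the active one in the complex. SF1, encoded by Nr5a1, is a nuclear receptor that marks neurons of the VMN, a hypothalamic nucleus that takes part in control of body weight and glucose. In translating ribosome affinity purification the tagged ribosomes are pulled down, and the RNA they hold is sequenced. RNA counts do not measure kinase activity, so the libraries do not show whether AMPK was blocked.

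Gene counts totalled 34.6 to 36.7 M in the CTRL outputs and 40.6 to 43.0 M in the DN outputs. Genes of the mitochondrial chromosome took 17.9 to 24.8% of them in CTRL and 24.1 to 26.1% in DN outputs. In inputs they took 74.9 to 79.7%, which left 8.54 to 11.3 M counts of nuclear genes, against 26.2 to 32.1 M in outputs. Input fold changes below thus rest on fewer counts, and most are given without their SE. Spearman correlation across genes was 0.884 to 0.897 within CTRL outputs, 0.866 to 0.886 within DN outputs and 0.870 to 0.898 between the groups. DN output 1 stood apart on the first principal component and DN output 2 on the second, while CTRL output 3 was high in interferon response genes, and values without each of these libraries are given where a result rests on them. Levels below are normalized counts scaled to library size (CPM), listed as CTRL pools 1, 2 and 3 and then DN pools 1, 2 and 3. The p-values measure the spread between libraries of different pools. With 1 output library per pool, that spread holds differences of pull-down, amplification and sequencing as well as of mice. The sex of the mice could be read from the counts. Xist, an RNA of female cells, had at most 1 count in any of the 12 libraries. Ddx3y, a gene of the Y chromosome, had 37.4 to 81.7 CPM, the pattern of male mice.

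The pull-down was checked first. Over both groups, 731 of 15011 genes (4.87%) were higher in outputs than in the inputs of their pools and 666 (4.44%) were lower by edgeR at an adjusted p under 0.05. These genes are called pulled down and depleted below, and the rest neither. Fezf1, a transcription factor of VMN neurons, was pulled down by 3.34 ± 0.19 (SE) on the log2 scale and Nr5a1 by 2.58 ± 0.44. Of the marker lists, 9 of 16 tested genes of the VMN transcription factor list were pulled down and 1 was depleted. That list holds 17 symbols under 18 identifiers, among them Dlx6os1, a noncoding RNA and not a transcription factor. Of 22 VMN peptides, receptors and markers 10 were pulled down and 2 were depleted. In the glial lists 16 of 17 tested astrocyte genes and 15 of 16 oligodendrocyte genes were depleted. Glial RNA was depleted but present, with astrocyte genes summing to 1374 to 2193 CPM in outputs and 4011 to 4840 CPM in inputs.

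Genes of AMPK itself were read next. Prkaa1, a catalytic subunit, had 31.9, 33.0 and 39.0 CPM in CTRL and 29.4, 21.1 and 30.2 CPM in DN outputs. Prkaa2, the other catalytic subunit, had 90.3, 71.4 and 95 CPM in CTRL and 114, 82.7 and 77.9 CPM in DN outputs. Every DN value of Prkaa1 lay below every CTRL value, while the groups overlapped for Prkaa2. The fitted log2 fold changes of DN over CTRL were -0.37 ± 0.31 (SE) and 0.09 ± 0.22, and neither passed edgeR's test. In the inputs of the same pools they were 0.42 and -0.47. Prkaa2 turned to -0.09 without DN output 1. The labels do not say which subunit the construct carries, and counts per gene cannot separate it from the mouse's own gene, so these levels do not check the labels.

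The other subunits of AMPK were low. Prkag2, a gamma subunit (ENSMUSG00000028944, chromosome 5, 24862744 to 25100642, GRCm38), had 4.45, 5.29 and 2.69 CPM in CTRL and 14.3, 11.3 and 13.9 CPM in DN outputs. All DN pools lay above all CTRL pools, at a log2 fold change of 1.66 ± 0.56 (edgeR unadjusted p = 0.0121, adjusted p = 0.91). Prkag2 was neither pulled down nor depleted, and its input fold change was -0.41. Prkab2, a beta subunit, had 12.3, 15 and 23.4 CPM in CTRL and 9.80, 26.3 and 15.9 CPM in DN outputs, with overlapping groups. Prkab1 and Prkag1 had at most 3.46 CPM in any output, and Prkag3 was below the filter on low counts. Of 7 subunit genes 6 were tested, 0 were called by edgeR and 4 had a positive fold change.

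Across all genes no difference between DN and CTRL outputs passed edgeR's test. Of 13333 genes tested 0 were called (0.00%), 721 (5.41%) had an unadjusted p under 0.05, DESeq2 called 58 (0.435%) and limma-voom called 1 (0.00750%). The groups were fully apart for 1471 genes (11.0%), with DN higher for 689 (5.17%) and lower for 782 (5.87%). With 3 against 3 libraries, a share of 0.1 of genes would be fully apart where the groups do not differ. The 11.0% is near that share, and the 5.41% is near the 0.05 that the threshold sets. Of the 58 genes that DESeq2 called, 23 were higher and 35 lower in DN, 32 had a mean under 5 CPM, 2 were pulled down and 4 depleted. Precision depended on the level of a gene. Among 1022 genes over 100 CPM the 95% interval of the log2 fold change lay within -1 and 1 for 989 (96.8%), so a larger than 2-fold difference lay outside the interval for these. That held for 54.3% of genes of 20 to 100 CPM, for 1.66% of genes of 5 to 20 CPM and for 0 of the 5705 genes under 5 CPM. It held for 595 of the 731 pulled-down genes (81.4%).

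**Figure D1:**
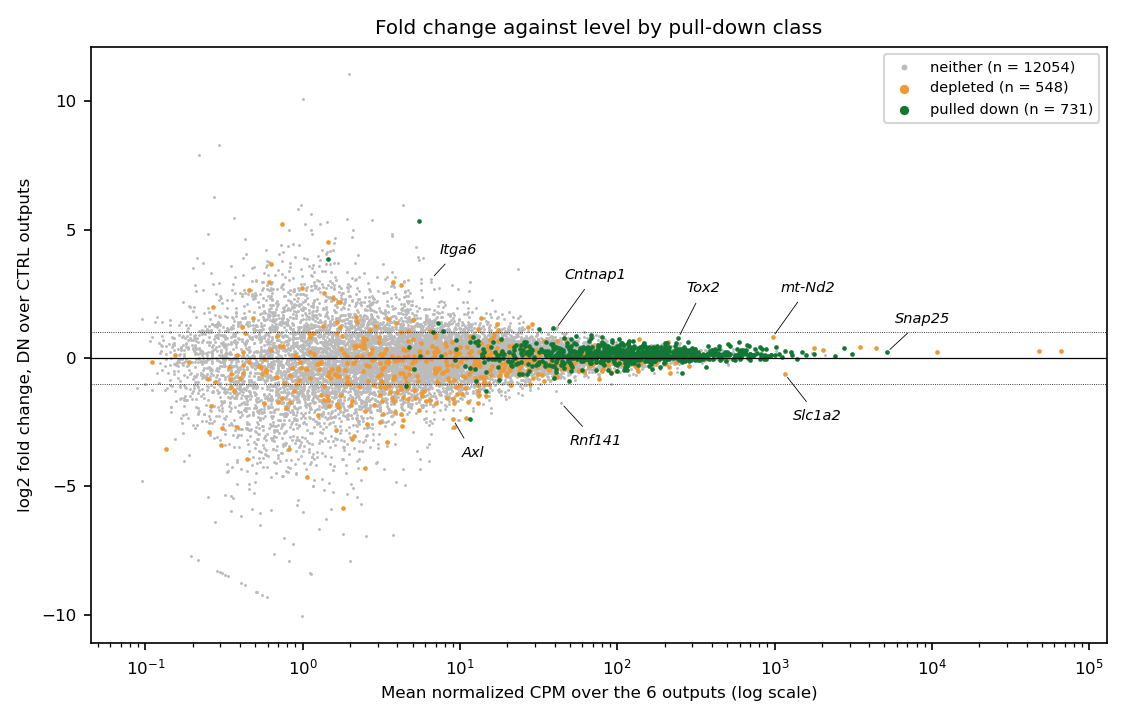
Fitted log2 fold change of DN over CTRL outputs (y axis) against mean normalized CPM over the 6 outputs (x axis, log scale), 1 point per gene tested, coloured by pull-down class. Dotted lines mark -1 and 1. The pulled-down genes sit mostly at high levels and within the dotted lines, slightly above 0 at a median of 0.14, and large fold changes belong to genes of low level.

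RNA that was pulled down leaned to the DN side by a small amount. The median log2 fold change of the 731 pulled-down genes was 0.14, and 540 of them (73.9%) had a positive one, against a median of 0.01 and 50.8% positive among all 13333 genes. At an unadjusted p under 0.05 by edgeR there were 61 pulled-down genes with DN higher and 12 with DN lower, beside 2.61% and 2.80% of all genes. DN pools lay fully above CTRL pools for 98 pulled-down genes (13.4%) and fully below for 15 (2.05%). Depleted genes leaned the other way, with a median of -0.18 and 37.0% positive. Without CTRL output 3 that median was -0.093 with 44.5% positive, and 20 depleted genes had an unadjusted p under 0.05 by edgeR with DN higher and 10 with DN lower, against 13 and 27 with all libraries. Genes of neither class had a median of 0.00061 and 50.1% positive. No single gene in these counts was called by edgeR. The same contrast in inputs gave the pulled-down genes a median of 0.06 and the depleted genes 0.06. Over all 13221 genes tested in inputs edgeR called 1 (0.00756%), DESeq2 called 2 (0.0151%), and 589 (4.46%) had an unadjusted p under 0.05. The classes were made from libraries that include these 6 outputs.

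Level moved with the lean as well. Among genes over 100 CPM the fold change was positive for 78.8% of 406 pulled-down genes, 66.1% of 561 genes of neither class and 45.5% of 55 depleted genes. Among all genes under 5 CPM it was positive for 44.2%. In the group over 100 CPM, 52 pulled-down genes had an unadjusted p under 0.05 with DN higher and 4 with DN lower, and genes of neither class had 23 and 10. Grouped by their output over input ratio, genes over 20 CPM with a log2 ratio from -2 to -1 had a median DN fold change of -0.26 (62 genes). Those with a log2 ratio from 0 to 0.5 had 0.08 (1733 genes), and those with a log2 ratio from 1 to 2 had 0.20 (197 genes). The 23 genes with a log2 ratio below -2, which include mitochondrially encoded genes, were at 0.14, and the 13 with a log2 ratio over 2 at 0.09. With upper quartile scaling 69.2% of pulled-down genes stayed positive, and without DN output 1 the count with DN higher was 34.

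**Figure D2:**
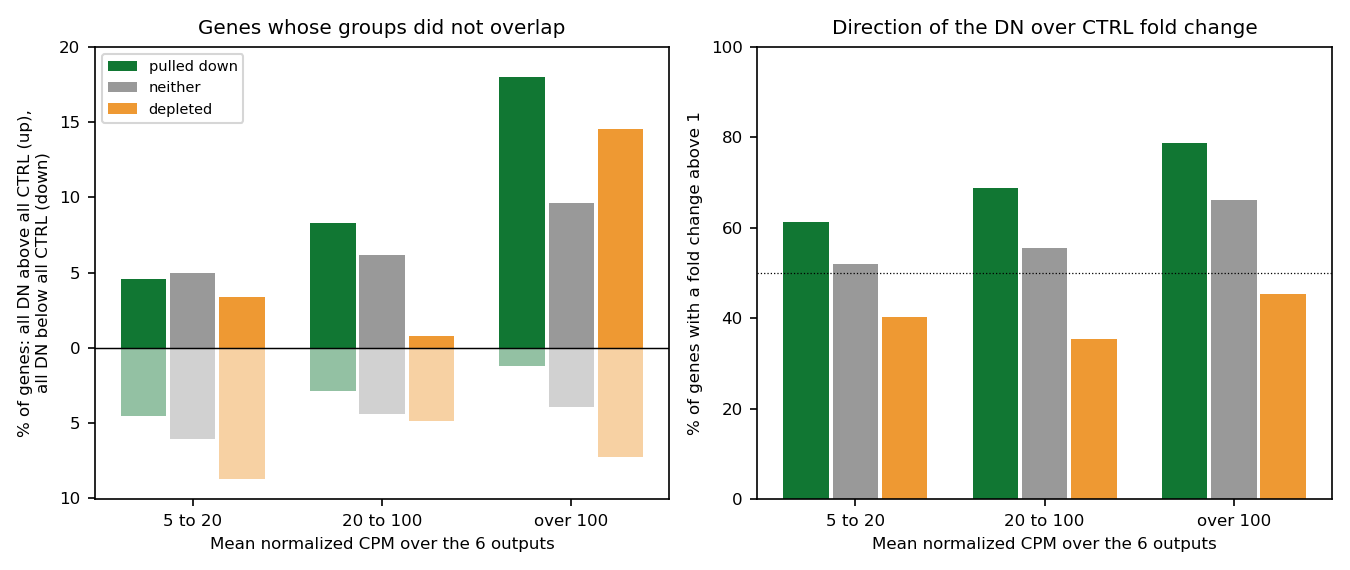
Left, percent of genes whose DN outputs lay all above (upward bars) or all below (pale downward bars) the CTRL outputs, by mean CPM and pull-down class. Right, percent of genes with DN above CTRL in the fitted fold change, with the dotted line at 50%. Pulled-down genes over 100 CPM stood at 18.0% above and 1.23% below, and 78.8% of them were positive.

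The 36 genes named by class were chosen for groups that did not overlap, and then by smallest edgeR p. Their separation was thus set by the choice and is no result. The 8 named pulled-down genes that were higher in DN had fold changes from 0.53 to 1.17, and Tox2 had the smallest p among them. Tox2, a transcription factor of VMN neurons (ENSMUSG00000074607, chromosome 2, 163203125 to 163324170), had 181, 190 and 169 CPM in CTRL and 349, 311 and 264 CPM in DN outputs. Its log2 fold change was 0.77 ± 0.16 (edgeR unadjusted p = 4.26e-04, adjusted p = 0.88). DESeq2 called it (adjusted p = 0.00949, with the highest over the alternatives at 1). The fold change of Tox2 in inputs was 0.62, close to that in outputs. Sv2b, a glycoprotein of synaptic vesicles (ENSMUSG00000053025, chromosome 7, 75114894 to 75309262), had 209, 175 and 182 CPM in CTRL and 311, 275 and 272 CPM in DN outputs (0.60 ± 0.15). Gabra2, an alpha subunit of the GABA-A receptor, had 435, 349 and 464 CPM in CTRL and 631, 549 and 629 CPM in DN outputs (0.53 ± 0.14). The input fold changes of Sv2b and Gabra2 were 0.19 and 0.22.

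Tpr, a protein of the nuclear pore, had 382, 550 and 476 CPM in CTRL and 848, 628 and 701 CPM in DN outputs (0.63 ± 0.16), with an input fold change of 0.04. Stard3nl, a membrane protein of late endosomes, had 18.9, 18.4 and 22.7 CPM in CTRL and 35.6, 51.1 and 44.7 CPM in DN outputs (1.13 ± 0.31, DESeq2 adjusted p = 0.0485, with the highest over the alternatives at 1). Cpne6, a calcium-dependent membrane-binding protein of neurons, had 17.5, 26.6 and 28.3 CPM in CTRL and 62.2, 35.4 and 65.3 CPM in DN outputs (1.17 ± 0.33), with DN pool 2 nearest to CTRL. Mamld1 had 40.8, 62.5 and 39.9 CPM in CTRL and 87.2, 83.2 and 93.7 CPM in DN outputs (0.88 ± 0.24), and Fstl4 was at 0.79 ± 0.22. Mamld1 and Cpne6 had negative input fold changes, at -0.57 ± 0.29 and -0.14 ± 0.50, and the other 6 of these 8 genes had positive ones. The input values of Cpne6 and Tpr (0.04 ± 0.15) were smaller than their SE and give no direction.

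Pulled-down genes that were lower in DN had fold changes from -1.28 to -0.36. Eif2a, an initiation factor that can deliver the first tRNA to the ribosome (ENSMUSG00000027810, chromosome 3, 58525821 to 58557501), had 121, 108 and 100 CPM in CTRL and 69.0, 79.7 and 68.4 CPM in DN outputs (-0.60 ± 0.19). Hmgcs1, an enzyme of cholesterol synthesis, had 134, 132 and 139 CPM in CTRL and 89.4, 106 and 96.4 CPM in DN outputs (-0.47 ± 0.18). Both groups were tight for these genes, and their input fold changes were -0.08 and -0.05. Cntnap2, a cell adhesion protein of axons, had 372, 461 and 396 CPM in CTRL and 355, 276 and 325 CPM in DN outputs (-0.36 ± 0.15). Add2, a protein of the membrane skeleton, had 99.9, 110 and 91.7 CPM in CTRL and 68.0, 75.0 and 77.0 CPM in DN outputs (-0.46 ± 0.19). Ankrd34b was barely apart, with 92.7 CPM in its lowest CTRL pool and 92.4 CPM in its highest DN pool. Znrf1, a ubiquitin ligase, was at -0.88 ± 0.32, Klf5, a transcription factor, at -1.28 ± 0.51, and Tmem167 at -0.47 ± 0.21. DESeq2 called 0 of these 8 genes, whose edgeR unadjusted p ran from 0.00894 to 0.0495.

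**Figure D3:**
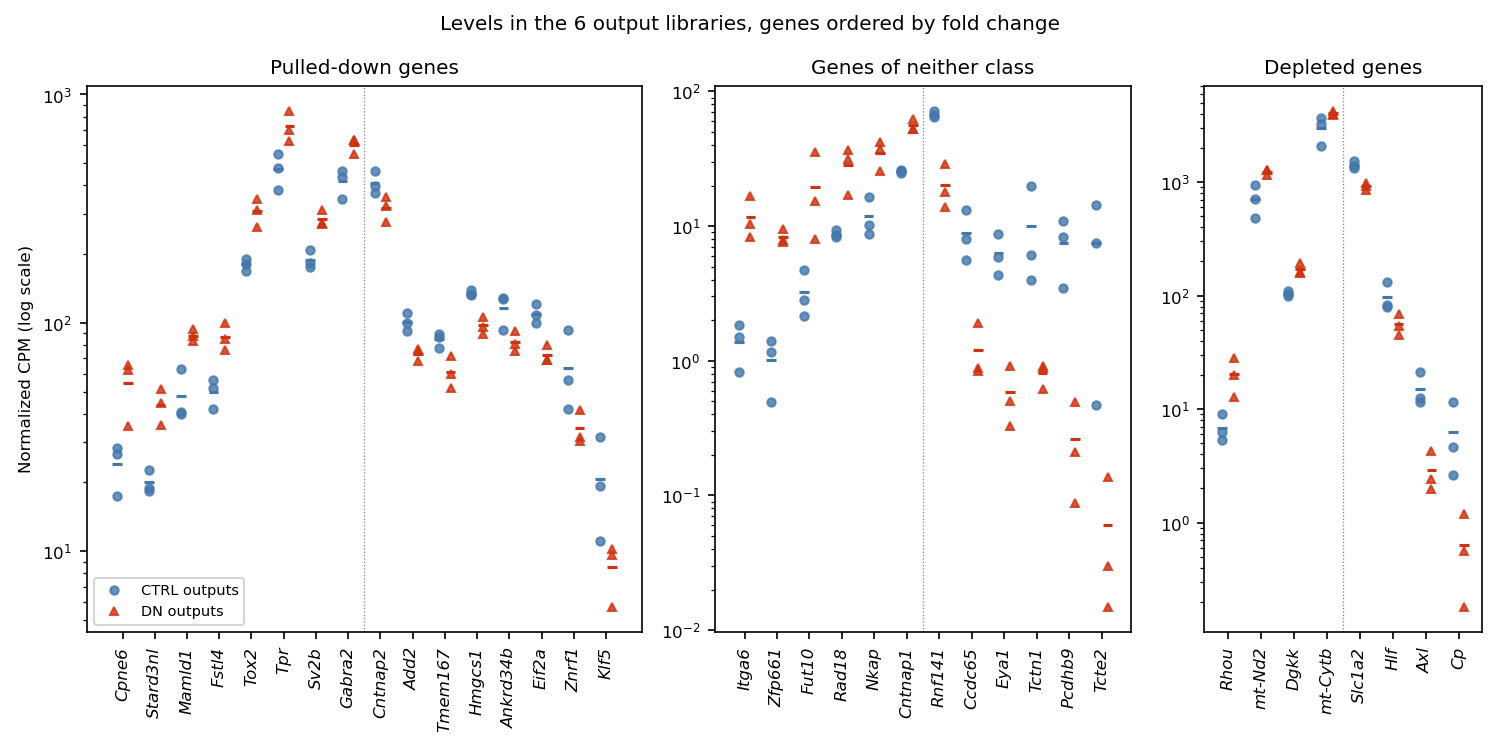
Normalized CPM (log scale) of 36 named genes in the 3 CTRL outputs (circles) and 3 DN outputs (triangles), with group means as horizontal bars; genes left of the dotted line were higher in DN. Genes were chosen for groups that did not overlap, so gaps between the groups are set by the choice. The gaps are narrow for pulled-down genes, while low genes of neither class spread widely within a group, such as Tcte2 from 0.467 to 14.4 CPM in CTRL.

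Genes that were neither pulled down nor depleted showed the wider differences, mostly at low levels. Rnf141, a ring finger protein (ENSMUSG00000030788, chromosome 7, 110800432 to 110844457), had 66.8, 71.7 and 64.7 CPM in CTRL and 28.8, 13.8 and 17.8 CPM in DN outputs. The CTRL pools were tight and far above the highest DN pool. Its log2 fold change was -1.75 ± 0.31 (DESeq2 adjusted p = 7.65e-05, edgeR adjusted p = 0.88, with the highest over the alternatives at 1), from -2.09 to -1.54 over the alternatives, and -0.05 in inputs. Cntnap1, a protein of the axon next to the node of Ranvier (ENSMUSG00000017167, chromosome 11, 101170523 to 101190724), had 24.9, 26 and 25.5 CPM in CTRL and 52.9, 52.7 and 62.3 CPM in DN outputs (1.13 ± 0.26). Itga6, an integrin subunit (ENSMUSG00000027111, chromosome 2, 71745616 to 71858416), had 1.5, 0.825 and 1.84 CPM in CTRL and 10.3, 16.7 and 8.23 CPM in DN outputs (3.08 ± 0.70). Itga6 was at -2.42 in inputs, but the difference between output and input effects did not pass edgeR's interaction test (adjusted p = 0.896).

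Other genes of this class were higher in DN at lower counts. Rad18, a ubiquitin ligase of DNA repair, had 9.33, 8.65 and 8.28 CPM in CTRL and 37.0, 31.3 and 16.9 CPM in DN outputs (1.70 ± 0.43). Nkap, a nuclear protein, had 16.6, 8.75 and 10.1 CPM in CTRL and 42.0, 25.8 and 37.6 CPM in DN outputs (1.57 ± 0.40). Fut10, a fucosyltransferase, spread from 8.05 to 35.2 CPM over the DN pools, above the CTRL range of 2.15 to 4.75 CPM. Zfp661, a zinc finger protein, had 0.493 to 1.40 CPM in CTRL and 7.64 to 9.49 CPM in DN outputs, and was at -1.84 in inputs. Genes lower in DN included Eya1, a transcriptional coactivator, with 4.32, 8.69 and 5.86 CPM in CTRL and 0.501, 0.328 and 0.921 CPM in DN outputs. Tctn1 and Ccdc65, both genes of cilia, had 4.0 to 19.7 and 5.55 to 13.1 CPM in CTRL against 0.619 to 0.921 and 0.840 to 1.90 CPM in DN outputs. Ccdc65 was at 2.21 in inputs, the opposite sign. Pcdhb9 had at most 0.495 CPM in DN outputs and at least 3.44 CPM in CTRL, but it belongs to a cluster of similar protocadherin genes between which reads may be split. Tcte2 had 7.48, 0.467 and 14.4 CPM in CTRL, so CTRL pool 2 was near the DN maximum of 0.137 CPM. DESeq2 called all 12 genes of neither class named here, with adjusted p from 1.64e-05 for Tcte2 to 0.0226 for Ccdc65, against 0.88 by edgeR and a highest value of 1 over the alternatives.

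A few genes had reads in 1 group only. In 14 of 13333 tested genes all DN outputs had 0 counts and each CTRL output had at least 10. Of these, 9 were protein coding. Glb1l2, a galactosidase-like protein, had 31, 58 and 104 counts in the CTRL pools, at least 68.5-fold above DN, taking 3 counts over the DN group as the floor. Slc26a9, an anion transporter, had 87, 24 and 88 counts and was at least 70.6-fold above DN. In 4 tested genes all CTRL outputs had 0 counts and each DN output had at least 10, and Msln was the protein-coding one. Gm26658, an antisense gene, had 258, 486 and 60 counts in DN outputs. The sources used here give no strand setting for the counting, so its reads cannot be told apart from those of an overlapping gene. These 18 genes were all of neither class, and their counts cover counting error only. They entered the test only through the group with reads, since the filter on low counts needs 3 libraries above its minimum. Reads in all 3 libraries of that group were thus set by the filter and are no result.

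Depleted genes were a separate case, since their RNA was lower in outputs than in inputs. Slc1a2, the glutamate transporter of astrocytes (ENSMUSG00000005089, chromosome 2, 102658659 to 102790784), had 1393, 1529 and 1319 CPM in CTRL and 918, 852 and 975 CPM in DN outputs. Its log2 fold change was -0.63 ± 0.11 (edgeR unadjusted p = 1.34e-04, adjusted p = 0.88). It was the 1 gene called by limma-voom (adjusted p = 0.0313) and was called by DESeq2 (adjusted p = 0.00949), with the highest over the alternatives at 1. Axl, a receptor tyrosine kinase, had 12.6, 11.6 and 21.3 CPM in CTRL and 2.43, 2.0 and 4.25 CPM in DN outputs (-2.39 ± 0.60, DESeq2 adjusted p = 0.01, with the highest over the alternatives at 1). Cp, the copper protein ceruloplasmin, was at -3.28 ± 1.05 and Hlf, a clock-output transcription factor, at -0.81 ± 0.26. In inputs Slc1a2 was at -0.15, Hlf at -0.20, Axl at 0.26 and Cp at 0.25.

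Summed over 18 genes, astrocyte markers had 1953, 2193 and 1920 CPM in CTRL and 1473, 1374 and 1447 CPM in DN outputs. All DN outputs were lower, while the inputs overlapped at 4011 to 4840 and 4172 to 4473 CPM. Slc1a2 alone averaged 1414 CPM in CTRL and 915 CPM in DN outputs, so most of these sums and of their difference is that gene. The median log2 ratio of output to input of the astrocyte genes was -1.60 to -1.42 in CTRL pools and -2.08 to -1.86 in DN pools. Of the 17 tested astrocyte genes 5 had a positive fold change (median -0.24), 2 had an unadjusted p under 0.05 with DN lower (2.80% of all genes did) and DESeq2 called 1, Slc1a2 (0.435% of all genes). The astrocyte median was -0.38 without DN pool 1. Oligodendrocyte genes were positive for 3 of 16 (median -0.19), but their summed CPM overlapped between the groups (305 to 490 in CTRL, 276 to 384 in DN), and their median was -0.33 without DN pool 2. The lower astrocyte values lay in outputs and in the ratio of output to input, not in inputs, and their cause was not tested. In bulk libraries, fewer cells of a type and less RNA per cell cannot be told apart. The part of glial RNA in the lean of the pulled-down genes to the DN side was not tested.

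The 4 named depleted genes that were higher in DN outputs had positive fold changes in inputs as well. Dgkk, a diacylglycerol kinase, had 99.5, 103 and 109 CPM in CTRL and 195, 159 and 163 CPM in DN outputs (0.73 ± 0.17), and was at 0.37 in inputs. mt-Nd2, a subunit of respiratory complex I encoded in mitochondria, had 478, 934 and 711 CPM in CTRL and 1271, 1279 and 1153 CPM in DN outputs (0.80 ± 0.20), and was at 0.57 in inputs. mt-Cytb was at 0.44 in outputs and 0.30 in inputs, and Rhou, a small GTPase, at 1.57 and 0.20. CTRL pool 1 was the lowest for both mitochondrial genes.

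**Figure D4:**
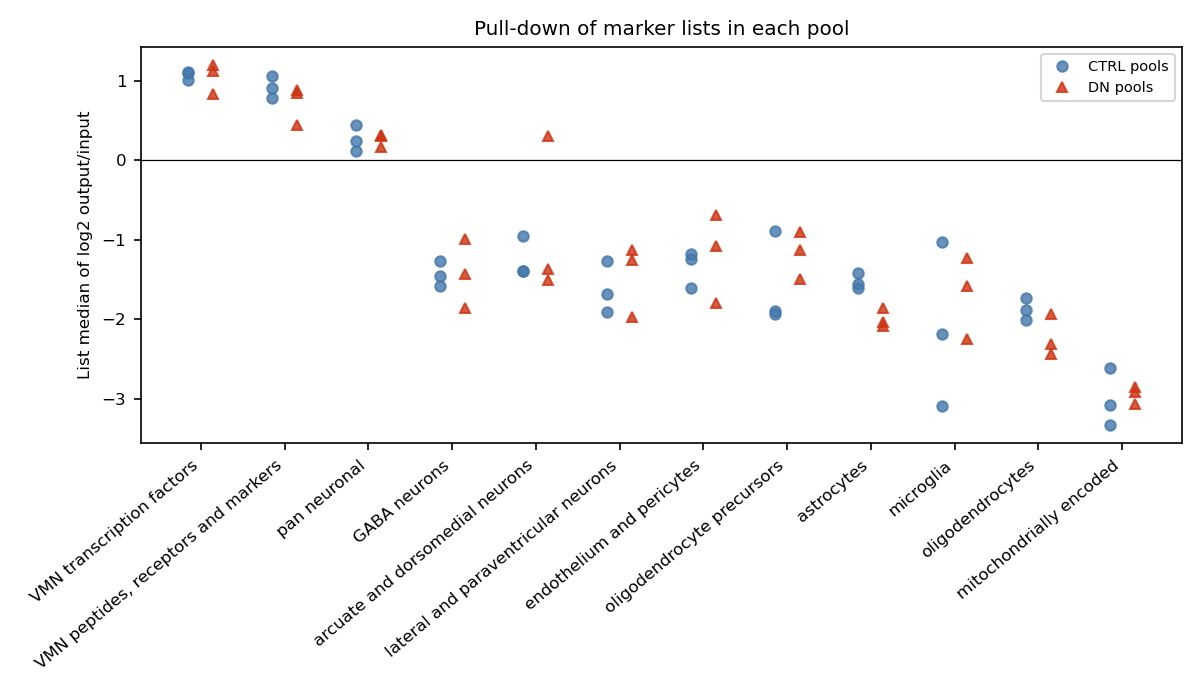
Median log2 ratio of output to input over the genes of each marker list, in each CTRL pool (circles) and DN pool (triangles); 0 means equal shares before and after the pull-down. VMN lists lie above 0 in every pool, glial lists below 0 in every pool, and for astrocytes all DN pools lie below all CTRL pools.

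Genes that mark the SF1 neurons were described as lists. Of 16 tested genes of the VMN transcription factor list 12 (75%) had a positive fold change (median 0.29, against 0.01 over all genes). By edgeR 3 had an unadjusted p under 0.05 with DN higher (2.61% of all genes did), and 0 were called. Pulled-down genes, which make up 9 of the 16, were positive for 73.9% as a class (median 0.14). The list median was 0.47 without CTRL pool 1. Their summed CPM was 921 to 933 in CTRL and 1061 to 1396 in DN outputs, apart in outputs, and was apart in inputs too. Tox2 led this list, which counts it under both descriptions. Fezf1 had 158, 175 and 168 CPM in CTRL and 267, 229 and 203 CPM in DN outputs (0.48 ± 0.16), fully apart. Nr5a1 had 36.2, 19.2 and 12.5 CPM in CTRL and 10.9, 31.1 and 25.1 CPM in DN outputs, with overlapping groups (-0.02 ± 0.50). In inputs Nr5a1 had 1.95, 2.97 and 1.29 CPM in CTRL and 6.50, 6.88 and 4.72 CPM in DN pools (1.54 ± 0.73). Its log2 ratio of output to input was 3.66, 2.35 and 2.56 in CTRL and 0.67, 2.03 and 2.19 in DN pools. The output effect minus the input effect was -1.60 ± 0.75 (edgeR interaction, unadjusted p = 0.0505) and was not called. VMN peptides, receptors and markers had 11 of 22 positive (median 0.04). Mc4r, a melanocortin receptor in neither class, had the smallest p of this list and was lower, with 9.68, 6.41 and 0.575 CPM in CTRL and 0.589, 0.119 and 0.261 CPM in DN outputs (-4.10 ± 1.24). CTRL pool 3 lay within the DN range, and DESeq2 called Mc4r (adjusted p = 0.0418, with the highest over the alternatives at 1). Slc17a6, the vesicular glutamate transporter of these neurons, had 692, 610 and 694 CPM in CTRL and 996, 811 and 709 CPM in DN outputs (0.33 ± 0.14), and Adcyap1, the precursor of the peptide PACAP, was at 0.47 ± 0.19. Prlr, the prolactin receptor, which was pulled down although listed for arcuate and dorsomedial neurons, was at 0.35 ± 0.16.

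Neuronal lists differed in direction. Snap25, a protein of vesicle fusion and the nuclear protein-coding gene with the highest CPM, had 4814, 5048 and 4468 CPM in CTRL and 5763, 5701 and 5245 CPM in DN outputs (0.22 ± 0.08), apart, and was at 0.30 in inputs. Of 18 pan neuronal genes 14 were positive (median 0.19, input median 0.23), with summed CPM of 7718 to 8237 in CTRL and 8832 to 9797 in DN outputs. Without CTRL pool 3 the pan neuronal median was 0.12. GABA-A and glycine receptor genes were positive for 13 of 17 (median 0.10) and vesicle release genes for 18 of 31 (median 0.10), against 50.8% of all genes. Both lists were at high levels, with a mean log2 CPM of 7.03 to 7.34 and 6.05 to 6.26 in outputs, and pan neuronal genes were at 6.68 to 7.09. Among all genes over 100 CPM 70.1% were positive (median 0.10), and among those of 20 to 100 CPM 56.0% (median 0.05). Glutamate receptor genes were positive for 11 of 21 (median 0.0065) and markers of GABA neurons for 4 of 9 (median -0.34), and both medians changed sign with some single libraries left out (GABA neurons without CTRL pool 1 or 3, glutamate receptors without CTRL pool 3, DN pool 1 or DN pool 3). Napb, which helps to recycle the vesicle fusion complex, had 543, 573 and 619 CPM in CTRL and 919, 794 and 675 CPM in DN outputs (0.46 ± 0.14). Rims1, a protein of the active zone in neither class, was lower, with 50.3, 44.6 and 70.0 CPM in CTRL and 26.1, 32.4 and 36.8 CPM in DN outputs. Scn8a, a sodium channel, was at 0.48 ± 0.15 with all DN pools above CTRL, and its list of sodium, calcium and HCN channels had 18 of 31 positive (median 0.03).

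Energy and stress genes were read by list as well. Nuclear genes of the respiratory chain were positive for 52 of 78 (median 0.21, input median 0.19), and tested mitochondrially encoded genes for 7 of 7 (median 0.37, input median 0.39). The mitochondrially encoded list holds 13 genes, and in each output 5 of them had 0 counts, for a cause that was not tested. The mitochondrially encoded median was 0.16 without CTRL pool 1 and 0.53 without CTRL pool 2, and the summed CPM of the list overlapped between the groups. Of 78 nuclear respiratory chain genes 1 had an unadjusted p under 0.05 with DN higher and 1 with DN lower, beside 2.61% and 2.80% of all genes. These were Cyc1 at 0.89 ± 0.40 and Ndufv1 at -1.63 ± 0.67. Cytosolic heat shock genes were positive for 11 of 14 (median 0.29, input median 0.08), 6 were apart with DN higher (5.17% of all genes were), and Hsp90aa1 had 267, 249 and 304 CPM in CTRL and 385, 350 and 320 CPM in DN outputs. Thioredoxins and peroxiredoxins were positive for 5 of 17 (median -0.19, input median 0.28), with Txn2, mitochondrial thioredoxin, at 5.52, 5.87 and 6.22 CPM in CTRL and 1.19, 3.04 and 1.57 CPM in DN outputs (-1.60 ± 0.79). The median of the thioredoxin list was -0.018 with 7 of 17 positive without CTRL pool 3, and -0.58 without DN pool 1. All DN pools lay below all CTRL pools for Txn2, whose input fold change was 1.74. In the mTOR list, Tbc1d7, a partner of the TSC complex, was at 1.78 ± 0.59 and Rps6kb1, the S6 kinase, at 0.77 ± 0.30, both apart, while the list had 12 of 19 positive (median 0.03). Mark2, an AMPK-related kinase, had 20.1, 36.4 and 8.28 CPM in CTRL and 5.86, 5.81 and 7.24 CPM in DN outputs. Glycolysis, cholesterol synthesis, fatty acid synthesis, the proteasome and cytosolic ribosomal proteins had medians from -0.02 to -0.01.

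Interferon response genes depended on 1 library. Their summed CPM was 109, 205 and 1685 in CTRL and 343, 580 and 594 in DN outputs. The median fold change was -0.62 with 4 of 21 positive, but 1.36 with 16 of 21 positive without CTRL pool 3. The median was positive as well by limma-voom and with the replicate number as a block. The inputs had the same order, with a CTRL range from 242 to 3018 CPM and a DN range from 684 to 1107 CPM.

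**Figure D5:**
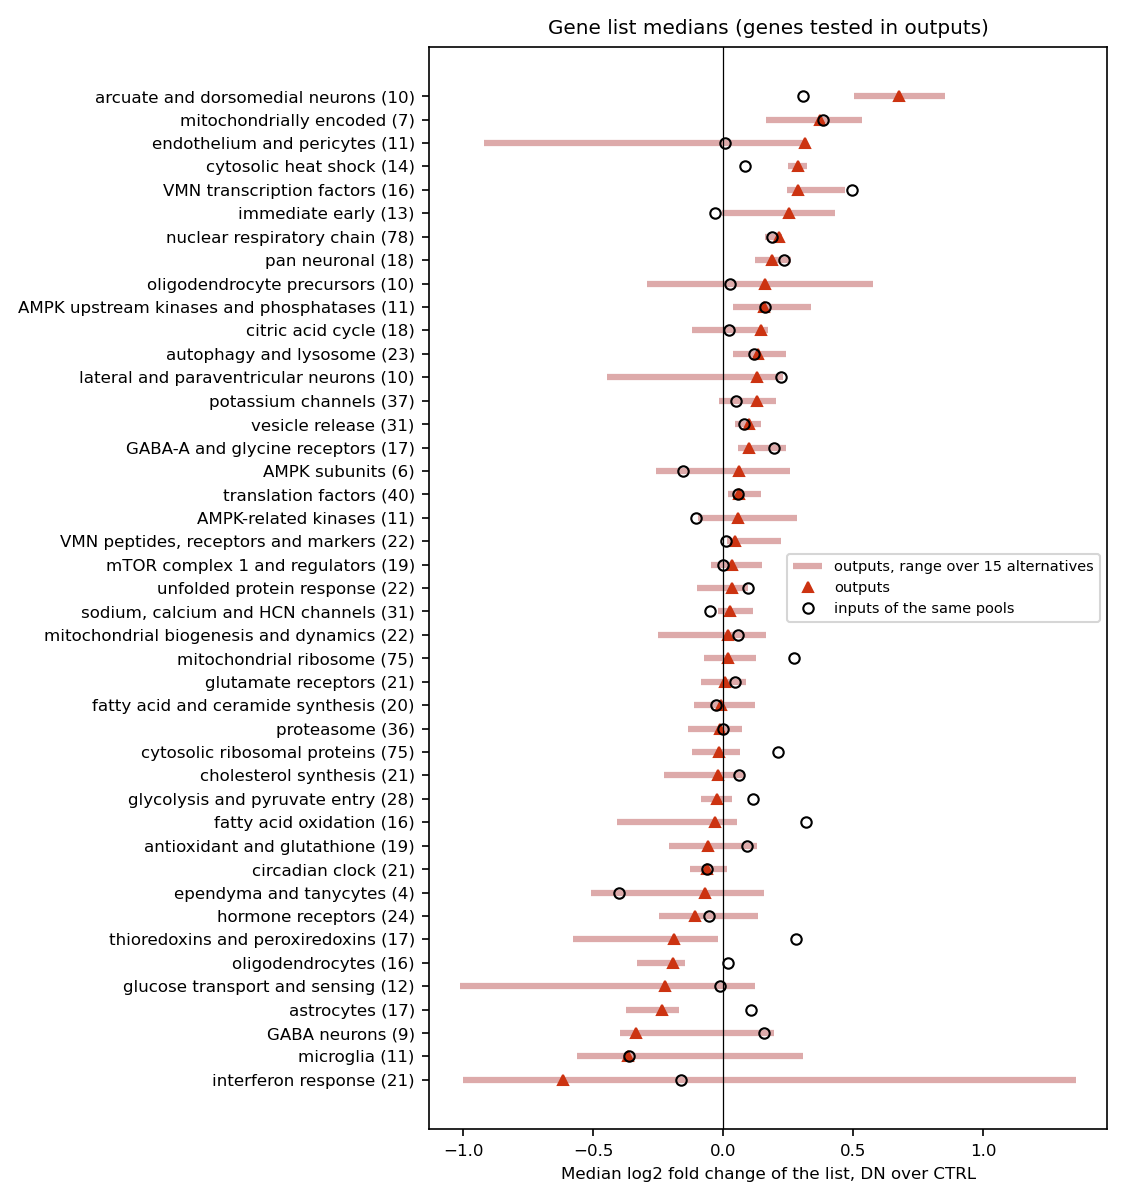
Median log2 fold change of DN over CTRL for 43 gene lists, in outputs (triangles) and in inputs of the same pools (open circles); bars span the output medians over 15 alternative settings (14 for mitochondrially encoded genes), and the number of tested genes is in brackets. Interferon response has the widest bar, and pan neuronal, heat shock and respiratory chain medians stay above 0.

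Over the 43 lists, 15 kept the sign of their median under every alternative that gave a value, 12 positive and 3 negative. There were 15 alternatives, and 14 for the mitochondrially encoded list, which has no genes in the fit without mitochondrial genes. The negative ones were astrocytes, oligodendrocytes, and thioredoxins and peroxiredoxins. Summed CPM was apart between the groups in outputs for 13 lists, 10 with DN higher and 3 with DN lower. Of the 10, 6 were apart the same way in inputs, among them VMN transcription factors, pan neuronal genes and heat shock. The 4 lists of the 10 that were apart in outputs alone were glutamate receptors, vesicle release, translation factors, and mTOR complex 1 and regulators. Among the 3 with DN lower, astrocytes and the circadian clock overlapped in inputs, and cytosolic ribosomal proteins were apart in inputs with DN higher. The effect of DN in outputs minus that in inputs, as an interaction over all 12 libraries, called 0 of 15011 genes by edgeR (0.00%), with 589 (3.92%) at an unadjusted p under 0.05 and 60 (0.400%) by DESeq2.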

How the data were processed

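RNA was measured by sequencing in 12 libraries, 3 per group and fraction (CTRL or DN, input or output), as their titles give. The authors deposited raw counts of reads per Ensembl gene. Build GRCm38 and the tools HTSeq 0.6.1, STAR 2.4.2a and cutadapt 1.3 are named, per the submitters' processing notes, and per the labels all RNA was linearly amplified. The sources used here give neither annotation release nor strand setting. The 5 HTSeq classes without a gene, 24.0 to 26.1% of entries in outputs, were left out. Symbols and positions came from GENCODE M21, which held 98.9% of identifiers.

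DN and CTRL outputs were compared with edgeR 4.0.16 in R 4.3.3 (quasi-likelihood, two-sided, TMM scaling, filterByExpr with a minimum count of 10 and minimum total of 15, Benjamini-Hochberg threshold 0.05) on the 6 outputs. Mitochondrial genes were kept. Pull-down was fitted over all 12 libraries with the pool as a block, and the interaction likewise. Normalized CPM used TMM factors over 12 libraries, and log2 ratios of output to input added 1 CPM. Genes count as apart where all 3 libraries of a group exceed all 3 of the other. Alternatives were DESeq2 1.42.0, limma-voom of limma 3.58.1, other scalings and filters, the replicate number as a block, 1 fit of 12 libraries, and leaving out libraries. The tools were tested on simulated data.

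Named genes were protein coding, apart, with the higher group averaging 5 CPM or more, and were taken by smallest edgeR p: 8 higher and 8 lower among pulled-down genes, 6 and 6 of neither class, 4 and 4 depleted. AMPK subunits, Nr5a1, Txn2 and up to 3 members per list were added, as was Snap25. Genes with reads in 1 group only were chosen after their values were seen. The comparison, lists and rule were chosen with earlier results of these data known, and Txn2 is known from the published study, so none is independent evidence. Replicate numbers do not pair DN with CTRL pools, which are different animals. Deviations of outputs of the same number correlated across genes at 0.0060, 0.012 and 0.0052. Input and output of the same pool, which do pair, correlated at 0.117, 0.031 and 0.145 in CTRL and -0.0065, -0.020 and 0.0091 in DN. These correlations therefore cannot decide whether libraries are paired. Intervals cover the spread between libraries of different pools of 6 mice, technical differences included, and no molecular identifiers were named.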

Additional observations from a re-analysis of the deposited data

How the results depend on the processing

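The count of genes called between DN and CTRL outputs by edgeR was 0 under every scaling, filter and left-out library, and 58 by DESeq2 and 1 by limma-voom. The replicate numbers do not pair DN with CTRL pools, and with the replicate number as a block the count was also 0, with 56 pulled-down genes higher and 10 lower in DN at an unadjusted p under 0.05. In inputs 1 gene was called by edgeR, against 2 by DESeq2, 0 with the block, 0 without mitochondrial genes and 0 to 8 without 1 library (8 without CTRL pool 3). For pull-down DESeq2 called 1130 genes higher and 1808 lower in outputs, against 731 and 666, while without the block 772 and 621 were called. The interaction gave 0 calls by edgeR and 60 by DESeq2. Without 1 library, pulled-down genes at an unadjusted p under 0.05 numbered 34 to 70 with DN higher (34 without DN pool 1) and 4 to 12 with DN lower (4 without CTRL pool 2, 6 without CTRL pool 3), so DN higher exceeded DN lower throughout. Depleted genes numbered 9 to 20 with DN higher and 10 to 29 with DN lower. Without CTRL pool 3 they were 20 and 10, which turns the direction, without CTRL pool 2 they were 16 and 17, and in 1 fit of 12 libraries they were 29 and 57; the cause was not tested. Fold changes of low or overlapping genes changed sign. Prkaa2 was at -0.020 and -0.089 without CTRL pool 2 and DN pool 1, in a range up to 0.20. Prkab1 was at -0.16 by limma-voom, -0.051 with the block and -0.44 to 1.17 without 1 library. Prkab2 was at -0.00060 with upper quartile scaling, -0.033 with the block, and -0.39 to 0.34 without 1 library. Nr5a1 was at 0.050 by limma-voom, 0.035 with the block and -0.33 to 0.49 without 1 library. The class counts were added after seeing the data. Under 5 CPM no 95% interval lay within -1 and 1 on the log2 scale, so a 2-fold difference was not excluded for any gene there.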

Other observations

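Ribosomal protein and clock genes gave values that the comparisons above did not hold. Cytosolic ribosomal protein genes summed to 1056 to 1183 CPM in CTRL and 981 to 1036 CPM in DN outputs, apart with DN lower, while their inputs were apart with DN higher (989 to 1172 and 1174 to 1403 CPM). Near-identical copies make single members of that family uncertain. Rpl4 had 213, 289 and 312 CPM in CTRL and 215, 200 and 206 CPM in DN outputs, with CTRL pool 1 inside the DN range. Clock genes summed to 778 to 862 CPM in CTRL and 725 to 749 CPM in DN outputs, and overlapped in inputs. None of these genes was called by edgeR.

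Genes of neighbouring hypothalamic neurons appeared at low levels. Hcrt, the orexin precursor of lateral hypothalamic neurons and a depleted gene, had 0, 0.0623 and 0.0493 CPM in CTRL and 1.64, 2.28 and 0.385 CPM in DN outputs. It had the largest fold change of its list of lateral and paraventricular genes, of which 6 of 10 were positive. Their summed CPM overlapped between the groups (65.5 to 75.2 in CTRL, 67.2 to 107 in DN), and their median of 0.13 changed sign under 6 alternatives. Pomc, the melanocortin precursor of arcuate neurons, had 4.52, 5.48 and 3.50 CPM in CTRL and 5.26, 11.3 and 17.9 CPM in DN outputs, with overlapping groups. Arcuate and dorsomedial genes summed to 266 to 290 CPM in CTRL and 354 to 390 CPM in DN outputs, and were apart with DN higher in inputs too. The part of the dissection in these values was not tested.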
